A study of Mus musculus with 6 samples.

Results

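Constitutive proteasome subunit genes were examined in mouse splenic B cells, labelled mature, that were activated, spin-infected with a retrovirus carrying a green fluorescent marker, and sorted for that marker. Members were taken from the deposited expression table by gene symbol alone: every gene of the Psma, Psmb, Psmc and Psmd series with a feature of exactly 1 gene symbol, without the immunoproteasome genes Psmb8, Psmb9 and Psmb10. This gave 36 of 19818 measured genes, 16 of the 20S core and 20 of the 19S cap. For the 5 member genes with several features, the one with the highest mean signal over all 6 arrays was used. The 3 groups had 2 arrays each and differed in the retroviral insert: the empty GFP vector (EV), IKK K171E (here IKK_K171E) or MYD88 L265P (here MYD88_L265P). Every group, the controls included, received the same handling: 36 hours with mitogen after infection, washing, and 24 hours without mitogen or anti-CD40 before sorting. Both inserts were added by retrovirus to cells that kept their own copies of the genes, no promoter is named for the inserts, and the IKK label names no subunit. Replicates are described as biological, and no label says whether animals were pooled or shared between groups, so p-values measure the spread between these arrays.

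The proteasome is the protease that destroys proteins marked with ubiquitin. Its 20S core is a barrel of alpha rings, which gate entry, around beta rings, which carry the proteolytic sites. The 19S cap recognises the ubiquitin chain, removes it and unfolds the substrate with a ring of ATPases. Cells that lack proteasome capacity raise subunit genes together through the transcription factor NRF1 (Nfe2l1), and B cells that turn into antibody-secreting cells are known for a heavy load of protein to fold and degrade.

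The inserts and the cells were checked first. Myd88 read a log2 signal of 9.30 and 9.35 in EV replicates 1 and 2, 9.43 and 9.14 in IKK_K171E, and 12.25 and 12.31 in MYD88_L265P. Ikbkb, the catalytic IKK beta gene, read 9.98 and 10.22 in EV, 11.35 and 10.68 in IKK_K171E, and 9.69 and 9.68 in MYD88_L265P, and its change in IKK_K171E over EV missed the threshold (limma adjusted p = 0.0848). The mean log2 signal of 6 measured B cell markers of 7 listed (including Cd79a, Cd79b and Ms4a1) was 12.03 to 12.09 in EV, 11.70 to 11.79 in IKK_K171E and 11.62 to 11.64 in MYD88_L265P. That of 9 monocyte and macrophage markers of 10 listed was 8.80 to 8.99, 9.19 to 9.49 and 8.70 to 8.93, and that of 7 T cell markers of 9 listed was 7.95 to 7.99, 8.10 to 8.30 and 7.53 to 7.70, against array medians of 8.03 to 8.13. Every measured B cell marker was below EV in both insert groups. Cd79b (-0.67, limma adjusted p = 0.00789) and Cd22 (-0.78, 0.00761) passed in MYD88_L265P, and Cd22 (-0.64, 0.0416) in IKK_K171E. Every measured T cell marker was below EV in MYD88_L265P, where Cd3e, Cd3g and Cd4 passed, and above EV in IKK_K171E, where none passed. The macrophage list mean joins markers that moved in opposite directions. In MYD88_L265P over EV the macrophage marker Adgre1 fell by 1.78 (limma adjusted p = 0.00425). Of the other macrophage markers, Mrc1 (0.60), Csf1r (0.30), Lyz2 (0.30), Itgam (0.09) and Fcgr1 (0.09) were above 0. Cd68 (-0.22), Marco (-0.05) and Cd14 (-0.03) were below 0, and none of these others passed. The dendritic markers Flt3 and Zbtb46 fell by 0.88 and 0.56 in the same comparison. In IKK_K171E over EV Flt3 rose by 0.75 and Itgax by 0.68. The mean of the 6 dendritic markers was 7.97 to 8.07 in EV, 8.26 to 8.33 in IKK_K171E and 7.65 to 7.73 in MYD88_L265P. The values are logarithms without detection calls, so no marker could be placed at 0. Lyz2 and Cd68 read 11.09 and 10.48 or more in EV. In arrays of sorted cells, fewer cells of a type and less RNA per cell cannot be told apart. The part of these markers in the results that follow was not tested.

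In MYD88_L265P, proteasome subunit genes of nearly every role rose over the empty vector. By limma with Benjamini-Hochberg adjustment over 21542 features, 29 of the 36 members were higher and 0 lower, against 9.32% of all features called higher and 7.33% called lower. The median log2 fold change of the members was 0.63, a fold of 1.54, while that of all features was -0.11. A log2 fold change above 0 was found for 35 of the 36 members and for 33.6% of all features. In 34 members both MYD88_L265P arrays lay above both EV arrays, which held for 23.2% of features, and in 0 members both lay below, which held for 47.9%. The largest rises were those of Psmd1 (log2 fold change 1.19, SE 0.17), a scaffold of the cap's base, and Psmd7 (1.12, SE 0.19), a lid subunit. With either MYD88_L265P array left out, the members' limma calls ended, although the median log2 fold change stayed at 0.61 in each case. With EV replicate 2 left out, many of the calls ended, among them those of Psmd7, Psmc6, Psma7, Psma3 and Psmb7. Each of these fits leaves a lone array in a group. The share of all features called there is not given, so lost calls cannot be read as particular to the members.

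**Figure D1:**
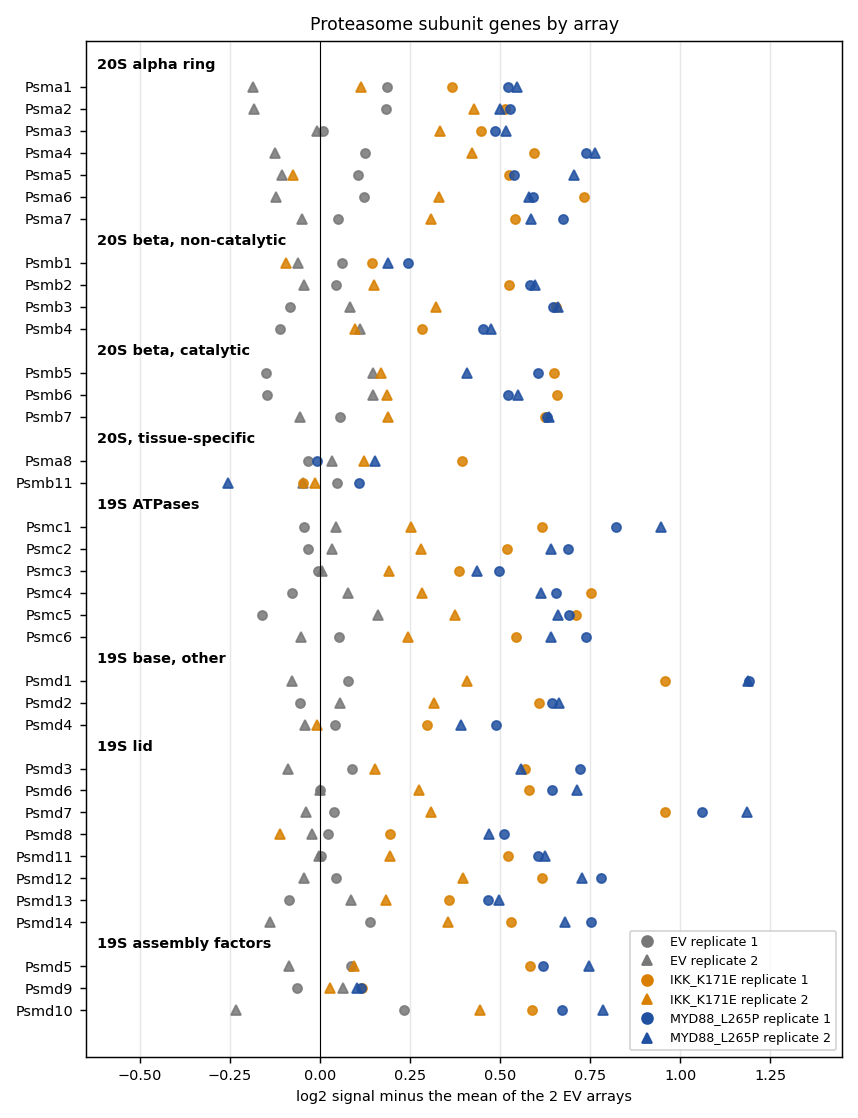
Each row is a subunit gene, and the horizontal axis is its log2 signal on an array minus the mean of the 2 EV arrays (circles, replicate 1; triangles, replicate 2). The MYD88_L265P arrays lie to the right of both EV arrays in 34 of 36 genes, and IKK_K171E replicate 1 lies to the right of replicate 2 in all but Psmb11.

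Because subunit genes are bright, they were also set beside features of like signal. The 34 members other than Psma8 and Psmb11 had mean log2 signals from 8.61 to 12.55. Of 8083 features in that range, 19.8% were called higher and 10.5% lower in MYD88_L265P over EV, with a median log2 fold change of 0.06. In the same range 55.9% of features had a log2 fold change above 0, against 34 of these 34 members.

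**Figure D2:**
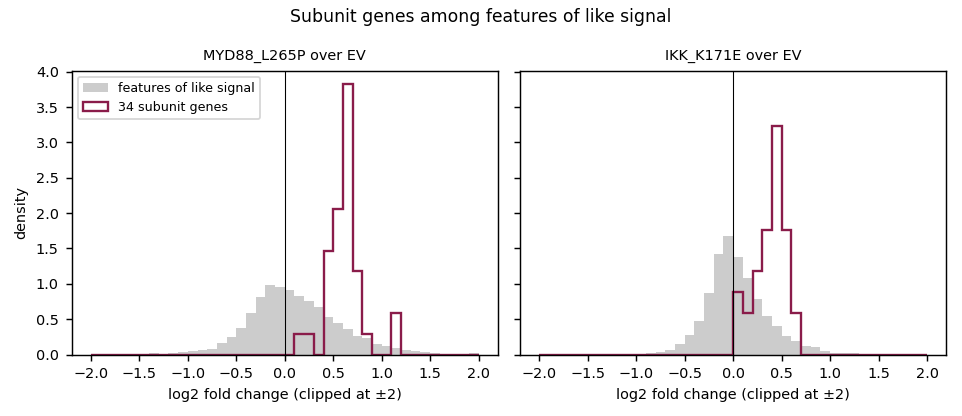
Histograms of log2 fold changes over EV (horizontal axis, clipped at 2 in each direction) as densities, for 34 subunit genes (line) and for features of like mean signal (grey). In the MYD88_L265P panel the genes centre near 0.63 and the grey features near 0.06.

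Promoters of members are shown because the genes moved together, with a search for the antioxidant response element core that NRF1 and NRF2 bind. RefSeq sequence (GRCm38.p6) was at hand for 29 of the 36 members, and the 250 bases before each listed start site were searched on both strands. A listed start site can lie inside the annotated gene, as in Psmb6 and Psmd2. The core was spelled TGACNNNGC, its reverse complement included. It was found in 5 of the 29 members (17.2%) and in 10.1% of 27025 genes. The promoters of Psmd12, which had the smallest adjusted p in MYD88_L265P over EV, and of Psmd1, which had the largest rise, are given with those of the catalytic subunit gene Psmb5 and of Psmd9, which did not pass. Capitals mark the core, on either strand, and Psmd1 has no match.
Psmd12, chr11:107479278-107479527 (+ strand): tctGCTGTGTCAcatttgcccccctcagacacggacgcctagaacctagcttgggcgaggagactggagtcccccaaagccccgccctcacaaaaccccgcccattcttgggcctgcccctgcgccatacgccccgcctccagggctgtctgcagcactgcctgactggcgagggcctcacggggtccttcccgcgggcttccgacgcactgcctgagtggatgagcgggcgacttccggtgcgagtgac
Psmd1, chr1:86064369-86064618 (+ strand): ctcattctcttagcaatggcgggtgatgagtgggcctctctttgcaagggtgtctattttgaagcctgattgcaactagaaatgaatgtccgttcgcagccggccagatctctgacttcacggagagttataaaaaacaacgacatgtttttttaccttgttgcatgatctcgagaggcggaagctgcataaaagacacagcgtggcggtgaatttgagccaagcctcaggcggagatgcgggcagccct
Psmb5, chr14:54617996-54618245 (- strand): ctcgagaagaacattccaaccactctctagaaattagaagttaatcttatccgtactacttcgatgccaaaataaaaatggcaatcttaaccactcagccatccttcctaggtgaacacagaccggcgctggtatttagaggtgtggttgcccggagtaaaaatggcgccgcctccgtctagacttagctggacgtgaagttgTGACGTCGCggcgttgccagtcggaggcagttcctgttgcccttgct
Psmd9, chr5:123227940-123228189 (+ strand): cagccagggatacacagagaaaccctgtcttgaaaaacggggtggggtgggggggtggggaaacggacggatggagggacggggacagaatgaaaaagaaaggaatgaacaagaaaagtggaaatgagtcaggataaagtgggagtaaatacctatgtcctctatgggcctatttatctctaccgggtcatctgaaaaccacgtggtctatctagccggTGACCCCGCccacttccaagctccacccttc
The other matches, in Psmb6 and Psmc6, are shown with up to 8 flanking bases.
Psmb6: aaagagagTGACGGAGC
Psmc6: agccagtaGCTAAGTCAggcattgc
The cores end 39 bases before the listed start site in Psmb5, 1 in Psmb6, 23 in Psmd9, 219 in Psmc6 and 239 in Psmd12. That of Psmb6 lies inside the annotated gene. Of these 5 genes, Psmc6 and Psmd12 were called higher in MYD88_L265P over EV, and 22 of the 24 members with no match were. The median log2 fold change was 0.54 for the 5 and 0.63 for the 24. In all 5 both MYD88_L265P arrays lay above both EV arrays. CCAAT, the box bound by NF-Y, was in 12 of 29 members (41.4%) and in 34.5% of genes. The E-box CACGTG was in 2 of 29 members (6.90%) and in 6.05% of genes. These counts describe letters in the searched windows and nothing further.

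Among the 6 ATPases that unfold substrates, all 6 rose in MYD88_L265P over EV, with log2 fold changes from 0.47 (Psmc3) to 0.88 (Psmc1) and a median of 0.67. Psmc1 read a log2 signal of 9.61 and 9.70 in EV, 10.27 and 9.91 in IKK_K171E, and 10.48 and 10.60 in MYD88_L265P. The MYD88_L265P arrays lay above all others and the EV arrays below all others, and the change over EV was 0.88 (SE 0.13, limma adjusted p = 0.00962). Psmc2 read 9.80 and 9.87 in EV, 10.35 and 10.11 in IKK_K171E, and 10.52 and 10.47 in MYD88_L265P. It followed the same order, with a change over EV of 0.66 (SE 0.11, limma adjusted p = 0.0111). Psmc6 read 10.39 and 10.28 in EV, 10.88 and 10.58 in IKK_K171E, and 11.07 and 10.98 in MYD88_L265P. Its change over EV was 0.69 (SE 0.12, limma adjusted p = 0.0143), and no groups overlapped.

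The base also holds the large scaffolds Psmd1 and Psmd2 and the ubiquitin receptor Psmd4, and all 3 rose. Psmd1 read a log2 signal of 10.45 and 10.29 in EV, 11.33 and 10.78 in IKK_K171E, and 11.56 and 11.56 in MYD88_L265P. The groups did not overlap, and the change in MYD88_L265P over EV was a fold of 2.28 (limma adjusted p = 0.00873). Psmd2 read 10.12 and 10.23 in EV, 10.78 and 10.49 in IKK_K171E, and 10.82 and 10.84 in MYD88_L265P. Its change over EV was 0.65 (SE 0.12, limma adjusted p = 0.0153), with IKK_K171E replicate 1 close to MYD88_L265P and replicate 2 between the groups. Psmd4 had the smallest change of the 3, at 0.44 (SE 0.12, limma adjusted p = 0.0475). Under quantile normalization the call of Psmd4 ended (limma adjusted p = 0.0816), as did those of the core genes Psma1 (0.0755), Psma2 (0.0697) and Psmb4 (0.0779).

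The lid removes ubiquitin chains, and all 8 of its members rose, with log2 fold changes from 0.48 (Psmd13) to 1.12 (Psmd7) and a median of 0.66. Psmd14, the deubiquitinase of the lid, read a log2 signal of 11.17 and 10.89 in EV, 11.56 and 11.38 in IKK_K171E, and 11.78 and 11.71 in MYD88_L265P, a change over EV of 0.72 (SE 0.12, limma adjusted p = 0.0132). Psmd7, which pairs with Psmd14, read 9.69 and 9.62 in EV, 10.61 and 9.96 in IKK_K171E, and 10.71 and 10.84 in MYD88_L265P. In both genes the groups were separate, but the IKK_K171E arrays of Psmd7 lay far apart, replicate 1 near MYD88_L265P and replicate 2 nearer EV (limma adjusted p = 0.0142 for MYD88_L265P over EV). Psmd12, a scaffold of the lid, read 11.01 and 10.92 in EV, 11.58 and 11.36 in IKK_K171E, and 11.74 and 11.69 in MYD88_L265P. Psmd6, another lid scaffold, read 11.11 and 11.11 in EV, 11.69 and 11.39 in IKK_K171E, and 11.76 and 11.83 in MYD88_L265P. Neither gene's groups overlapped, with changes over EV of 0.75 (SE 0.10, limma adjusted p = 0.00787) and 0.68 (SE 0.12, limma adjusted p = 0.0136).

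The Psmd series also names assembly factors of the base that leave the finished particle. Psmd10 (0.73, SE 0.16) and Psmd5 (0.68, SE 0.16) rose in MYD88_L265P over EV. Psmd9 was the 1 of 20 genes of the 19S series that did not pass, at 0.11 (SE 0.09, limma adjusted p = 0.397), with log2 signals between 8.49 and 8.67 on all 6 arrays.

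In the core, 6 of the 7 alpha ring genes rose in MYD88_L265P over EV, with a median log2 fold change of 0.59 over the 7. Psma4 read a log2 signal of 11.85 and 11.60 in EV, 12.32 and 12.15 in IKK_K171E, and 12.47 and 12.49 in MYD88_L265P. Its change over EV was 0.75 (SE 0.11, limma adjusted p = 0.0102), the largest of the core. Psma7 read 11.52 and 11.43 in EV, 12.02 and 11.78 in IKK_K171E, and 12.15 and 12.06 in MYD88_L265P. Psma3 read 12.27 and 12.25 in EV, 12.70 and 12.59 in IKK_K171E, and 12.74 and 12.77 in MYD88_L265P. No groups overlapped in these 3 genes, and the changes over EV of Psma7 and Psma3 were 0.63 (SE 0.11) and 0.50 (SE 0.09), with limma adjusted p of 0.0138 and 0.0146. Psma5 did not pass (0.62, SE 0.19, limma adjusted p = 0.0646), and of its IKK_K171E arrays, at 11.01 and 10.41, replicate 1 lay near MYD88_L265P (11.03 and 11.19) and replicate 2 within the range of EV (10.59 and 10.38).

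Of the 3 catalytic subunits 1 passed in MYD88_L265P over EV, with log2 fold changes from 0.51 to 0.63. Of features in the subunit genes' signal range 19.8% were called higher, and a count of 1 among 3 genes is near that share. Psmb7, the trypsin-like site, read a log2 signal of 11.83 and 11.72 in EV, 12.40 and 11.97 in IKK_K171E, and 12.41 and 12.41 in MYD88_L265P, and its rise in MYD88_L265P was 0.63 on the log2 scale (SE 0.14, limma adjusted p = 0.0295). Psmb5, the chymotrypsin-like site that proteasome inhibitors are built to block, read 10.86 and 11.16 in EV, 11.66 and 11.18 in IKK_K171E, and 11.62 and 11.42 in MYD88_L265P. Its MYD88_L265P and EV arrays were separate, and the difference of 0.51 (SE 0.18) did not pass (limma adjusted p = 0.0859). Psmb6, the caspase-like site, read 10.49 and 10.78 in EV, 11.29 and 10.82 in IKK_K171E, and 11.15 and 11.18 in MYD88_L265P. It was likewise separate between those groups and did not pass (0.54, SE 0.17, limma adjusted p = 0.0674). With array weights the adjusted p of Psmb6 was 0.0426, and with EV and MYD88_L265P alone in the fit, or without either IKK_K171E array, it was 0.0381. In both genes EV replicate 2 was the higher control array, and IKK_K171E replicate 1 the highest of all. Of the 4 beta subunits without a proteolytic site, Psmb2, Psmb3 and Psmb4 rose by 0.59, 0.65 and 0.46, and Psmb1 had 0.22 (SE 0.11, limma adjusted p = 0.183).

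The 2 core genes known from single tissues had the lowest signals of the members. Psma8, the alpha subunit of male germ cells, read log2 signals between 6.40 and 6.83 over the 6 arrays, and Psmb11, the beta subunit of the thymic cortex, between 7.45 and 7.82. Every other member had a mean of 8.61 or more. Their log2 fold changes in MYD88_L265P over EV were 0.07 and -0.07, and neither passed in any comparison. Psmb11 is the immediate protein-coding neighbour of Psmb5 in the genome, with 0 such genes between them.

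The core and the cap were then compared by their changes. The median log2 fold change in MYD88_L265P over EV was 0.53 for the 16 core genes and 0.67 for the 20 cap genes, a difference of -0.14. Around their group means, single arrays had an SD of 0.041 in median core deviation minus median cap deviation. That SD rests on 2 arrays per group and is not the spread of the difference between medians. Without Psma8 and Psmb11 the core median was 0.56 and the difference -0.11. Of the core 10 of 16 members were called higher, or 10 of 14 without Psma8 and Psmb11, and of the cap 19 of 20. Of all features 9.32% were called higher, and 19.8% of features in the subunit genes' signal range. Both MYD88_L265P arrays lay above both EV arrays in all 14 of these core genes and all 20 cap genes, against 23.2% of features. Set against the EV mean, the average core gene (14 genes, without Psma8 and Psmb11) changed by 0.03 and -0.03 on the EV arrays, 0.52 and 0.21 in IKK_K171E and 0.55 and 0.55 in MYD88_L265P. The average cap gene changed by 0.02 and -0.02, 0.55 and 0.23, and 0.67 and 0.66. Core and cap differed little in IKK_K171E over EV, with medians of 0.40 and 0.41. The comparison of 2 gene lists has no test here, since genes are not replicates, and the difference in MYD88_L265P shrank to -0.053 without EV replicate 1. Core features were brighter than cap features (median of the mean log2 signals 11.32 and 10.46), and across the 34 genes signal and log2 fold change in MYD88_L265P over EV had a Spearman correlation of 0.14. The part of signal level in the difference was not tested.

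**Figure D3:**
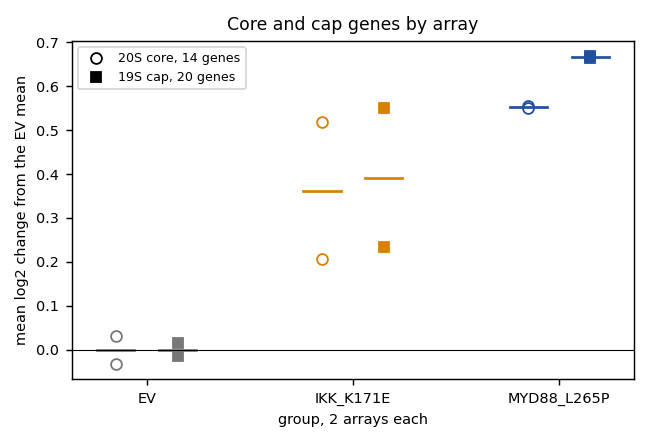
Mean log2 change from the EV mean (vertical axis) of 14 core genes (open circles) and 20 cap genes (squares) on each array of the 3 groups, with a bar at the mean of the 2 arrays. The MYD88_L265P arrays stand at 0.55 for the core and at 0.66 and 0.67 for the cap, while the IKK_K171E arrays lie apart at 0.52 and 0.21 for the core.

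In IKK_K171E over the same EV arrays, no member passed. By limma 0 of the 36 were higher and 0 lower, where 1.37% of all features were called, 0.956% higher and 0.413% lower. These shares are of adjusted calls. An unadjusted p below 0.05 was found for 25 members, with no share of all features at that threshold beside it. The median log2 fold change was 0.40, a fold of 1.32, beside -0.04 over all features and 0.00 over the features of like signal. A log2 fold change above 0 was found for 35 of 36 members and for 40.5% of all features. It ran from -0.03 (Psmb11) to 0.68 (Psmd1, SE 0.17, limma adjusted p = 0.107), and the smallest limma adjusted p was 0.0692 for Psmd12 (0.51, SE 0.10). In 28 members both IKK_K171E arrays lay above both EV arrays, against 17.6% of features. Under quantile normalization Psmb1 and Psmd8 turned to -0.017 and -0.0034.

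The replicates of IKK_K171E differed in the subunit genes as a body. Replicate 2 was below replicate 1 in 34 of the 34 members without Psma8 and Psmb11, with a median difference of -0.30, while over all features that median was 0.011. In EV replicate 2 was above replicate 1 in 12 of 34 and in MYD88_L265P in 17 of 34, with median differences of -0.08 and 0.001. The widest gap was in Psmd7, at 0.65. Ikbkb, given above, also read higher in IKK_K171E replicate 1 than in replicate 2, as did the monocyte and macrophage markers, at 9.49 and 9.19. Among those markers, in IKK_K171E over EV, Csf1r was higher (1.22, SE 0.19, limma adjusted p = 0.0383) and Adgre1 lower (-1.17, SE 0.17, limma adjusted p = 0.0361). Of the rest, Lyz2 (1.41), Cd68 (0.77), Mrc1 (0.76), Fcgr1 (0.53), Itgam (0.47) and Cd14 (0.07) were above 0. Marco (-0.03) was below 0, and none of the rest passed. The part of Ikbkb and of these markers in this gap was not tested. Without IKK_K171E replicate 1 the members' median over EV was 0.22, and without replicate 2 it was 0.54.

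MYD88_L265P was also compared directly with IKK_K171E. By limma 0 of 36 members passed in either direction, against 1.75% of features called, 0.873% higher and 0.877% lower. These shares are of adjusted calls. An unadjusted p below 0.05 was found for 9 members, all higher, with no share of all features at that threshold beside it. The median log2 fold change was 0.23, and over all features -0.05. Psmd1 had the largest difference (0.51, SE 0.17, limma adjusted p = 0.19), followed by Psmd7 (0.49, SE 0.19) and Psmc1 (0.45, SE 0.13). Psmd8, a lid gene, had the smallest limma adjusted p at 0.119 (0.45, SE 0.12), with log2 signals of 10.53 and 10.22 in IKK_K171E and 10.85 and 10.80 in MYD88_L265P. In 25 members the arrays did not overlap, with MYD88_L265P higher, against 20.9% of features. Psma2 turned from 0.04 to -0.039 under quantile normalization, and the median became 0.09 without IKK_K171E replicate 2 and 0.35 without replicate 1. The direct comparison and the comparisons with EV share arrays, so their values are not independent.

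**Figure D4:**
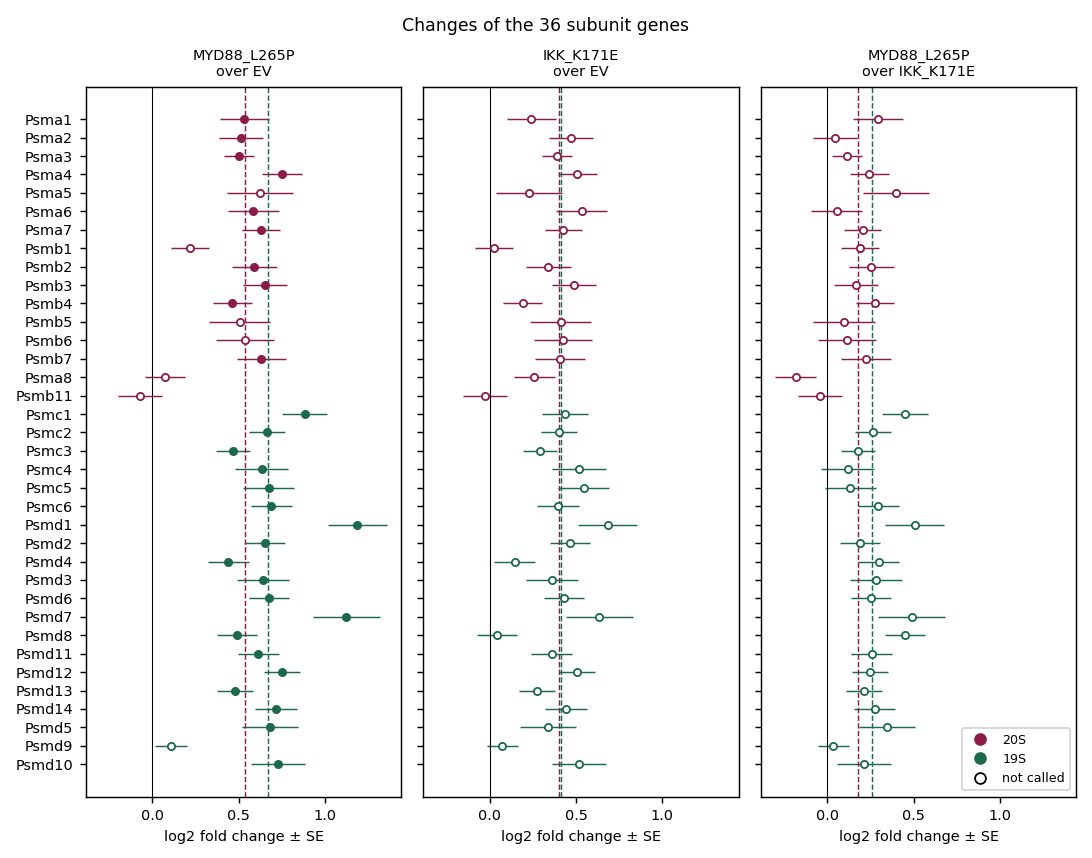
Log2 fold change with its SE (horizontal axis) of each of the 36 genes in the 3 comparisons, with filled points where limma called the gene and dashed lines at the medians of the core and the cap. Filled points occur in the MYD88_L265P over EV panel, where the medians are 0.53 and 0.67.

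Genes that work with the proteasome under other names were read from lists, of which 28 of 36 genes had a single-symbol feature. In MYD88_L265P over EV 10 rose and 1 fell, with a median log2 fold change of 0.23, where 9.32% of all features and 19.8% of features in the subunit genes' signal range were called higher. Without EV replicate 2, or without either MYD88_L265P array, the call of Psme3 remained of these 10 and 9 ended. Without EV replicate 1, 7 of the 10 remained. Cap partners rose: Usp14 (0.81, SE 0.14) and Uchl5 (0.86, SE 0.17), deubiquitinases that dock on the cap, and Sem1 (0.43, SE 0.09), a small lid subunit. They were the 3 measured of 4 listed, and the call of Sem1 ended under quantile normalization (0.28, limma adjusted p = 0.069). Usp14 read a log2 signal of 10.43 and 10.30 in EV, 11.10 and 10.71 in IKK_K171E, and 11.16 and 11.19 in MYD88_L265P.

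Of 9 measured assembly factors and activators, 5 rose in MYD88_L265P over EV. Psmg1 (0.53, SE 0.11) and Psmg2 (1.01, SE 0.17), which form a pair that builds the alpha ring, rose, as did Pomp (0.49, SE 0.10), which matures the core. Psmg3 and Psmg4, the other chaperone pair, had 0.19 and -0.05 and did not pass. Psme3, a nuclear activator of the core, read 10.53 and 10.47 in EV, 11.35 and 11.15 in IKK_K171E, and 11.44 and 11.37 in MYD88_L265P. It rose in MYD88_L265P over EV (0.91, SE 0.10, limma adjusted p = 0.00483) and in IKK_K171E over EV (0.75, SE 0.10, limma adjusted p = 0.0291). That second call ended without EV replicate 2 (limma adjusted p = 0.0811) and without IKK_K171E replicate 1 (0.166). Without a MYD88_L265P array, or with EV and IKK_K171E alone in the fit, it was 0.0789. Ecpas, a proteasome adaptor, rose by 0.37 in MYD88_L265P over EV (limma adjusted p = 0.044), a call that ended under quantile normalization (0.119), with all features of the table (0.0503), with only the groups compared (0.0535) and with any 1 array left out.

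The NRF1 axis had 2 of 10 measured genes higher in MYD88_L265P over EV, near the share of features in the same signal range given above. They were Vcp (0.60, SE 0.14), the segregase that pulls ubiquitinated proteins out of membranes and complexes, and its cofactor Nploc4 (0.56, SE 0.14), whose call ended under quantile normalization (0.41, limma adjusted p = 0.0621). Nfe2l1 itself read a log2 signal of 9.80 and 10.24 in EV, 10.02 and 9.89 in IKK_K171E, and 10.00 and 10.21 in MYD88_L265P. Its groups overlapped, and its difference of 0.08 (SE 0.16, limma adjusted p = 0.708) turned to -0.068 under quantile normalization. Nfe2l2, the related factor NRF2, had 0.23 (SE 0.13, limma adjusted p = 0.206). NRF1 is controlled largely by processing of its protein, which arrays do not measure.

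Of the 5 inducible genes of the immunoproteasome, 0 were called higher and 1 lower in MYD88_L265P over EV by limma. Of all features 9.32% were called higher and 7.33% lower, and of features in the subunit genes' signal range 19.8% and 10.5%. Counts of 0 and 1 among 5 genes are near these shares. At an unadjusted p below 0.05 the counts were 0 higher and 2 lower, with no share of all features beside them. Psmb9, the counterpart of Psmb6, read a log2 signal of 11.99 and 11.86 in EV, 11.80 and 11.54 in IKK_K171E, and 11.55 and 11.46 in MYD88_L265P. It fell by 0.42 in MYD88_L265P over EV (SE 0.12, limma adjusted p = 0.0477), and this call ended with a common array median (limma adjusted p = 0.096), with all features of the table (0.0558) and without any 1 of the EV or MYD88_L265P arrays. Psmb10, the counterpart of Psmb7, read 9.83 and 9.74 in EV, 10.03 and 9.92 in IKK_K171E, and 9.51 and 9.57 in MYD88_L265P. The MYD88_L265P arrays were the lowest and the IKK_K171E arrays the highest, and the difference between those groups was -0.44 (SE 0.09, limma adjusted p = 0.0731, and 0.0327 under quantile normalization). In MYD88_L265P over EV the change of Psmb10 was -0.25 (SE 0.09, limma adjusted p = 0.0968). Under quantile normalization that change was -0.39 and passed (limma adjusted p = 0.0258). Psmb8, the counterpart of Psmb5, had 0.22 in MYD88_L265P over EV (SE 0.16, limma adjusted p = 0.325), with EV arrays at 10.94 and 10.44. Without EV replicate 1 this became 0.47 and passed (limma adjusted p = 0.0371), and without EV replicate 2 it was -0.035. Psme1 and Psme2, the interferon-inducible activator, had 0.09 and 0.01. Whether the change of a constitutive subunit differed from that of its inducible counterpart was not tested.

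**Figure D5:**
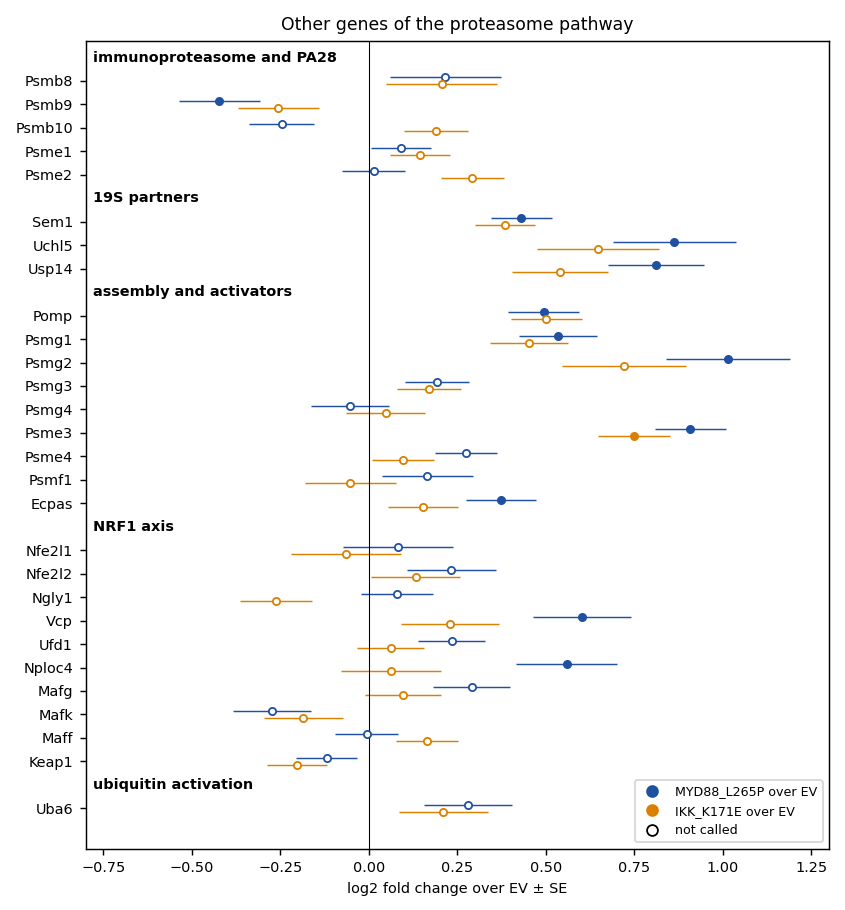
Log2 fold change over EV with its SE (horizontal axis) of 28 further genes of the pathway by list, in MYD88_L265P (blue) and IKK_K171E (orange), filled where called. Psmg2, Psme3, Uchl5 and Usp14 stand highest, at 0.81 to 1.01 in MYD88_L265P, and Psmb9 lowest, at -0.42.

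Several members have more than 1 feature, some of which may read copies of the gene elsewhere in the genome. Feature numbers run in genome order. For 97.0% of 21472 features, the commonest chromosome among the 10 features on either side was that of the feature's own gene. By this measure the brightest features of Psma3, Psma5 and Psmb3 stand among genes of another chromosome. The remaining features of those genes gave log2 fold changes in MYD88_L265P over EV of 0.54 and 0.53 for Psma3, 0.49 for Psma5 and 0.86 for Psmb3, beside 0.50, 0.62 and 0.65 for the brightest. With features from the gene's own chromosome, 29 members were again called. The second features of Psmc1 and Psmd2 gave 1.02 and 0.52, beside 0.88 and 0.65. Both of these, and the Psma3 feature with 0.53, also stand among genes of another chromosome. Signals of near-identical copies on these features cannot be told apart.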

How the data were processed

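Expression was measured on 6 Affymetrix mouse ST 1.0 arrays, 2 per group. The authors deposited log2 expression values for each feature, made with oligo and limma, per the submitters' processing notes; versions, the normalization method and the genome build are not given in the sources used here. No detection calls are used here, and the number of arrays limits the precision. Group means were fitted to all 6 arrays with limma 3.58.1 (R 4.3.3) over the 21542 of 24743 features with exactly 1 gene symbol in the platform annotation, with eBayes (4.17 degrees of freedom from the prior, 3 from residuals). P-values are two-sided, adjusted by Benjamini-Hochberg over these features, and a feature was called below 0.05. Counts of members at an unadjusted p below 0.05 have no share of all features beside them. A gene was read from its brightest feature. The procedure was tested on simulated data. Arrays are given by the replicate number of their descriptions; the titles number them otherwise.

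The members and the gene lists were chosen with earlier results of these data known. Values on every array are given for the 12 called members of smallest adjusted p and for Psmb5, Psmb6 and Psmb7, and other pathway genes are named where called, with Nfe2l1, Pomp, Psmb8, Psmb9 and Psmb10; genes beyond these were named after their values were seen. All 36 members matched RefSeq gene identifiers. The alternatives were a replicate block, quantile normalization, a common array median, an intensity trend, array weights, a low-signal filter, all features, only the groups compared, the mean of a gene's features, and each array left out. Features of the gene's own chromosome, and members without tissue-specific subunits and assembly factors, were added after the data were seen.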

Additional observations from a re-analysis of the deposited data

How the results depend on the processing

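Under the 11 alternatives that kept all arrays, the count of members called higher in MYD88_L265P over EV ran from 25 to 31, and the median log2 fold change from 0.52 to 0.71. Of all features 9.32% were called higher in the main fit and 10.9% with the replicate block. Shares under the other alternatives are not given. Leaving out 1 array gave counts from 0 to 29 and medians from 0.58 to 0.63; the count was 0 without either MYD88_L265P array, and the lone array left in a group is assumed to vary like the other arrays. In IKK_K171E over EV the count of 0 became 1 with the replicate block (Psmd12, limma adjusted p = 0.0454) and 1 with the intensity trend (Psma3, 0.047), and ran from 0 to 3 with an array left out. In MYD88_L265P over IKK_K171E it was 0 throughout. The replicate numbers pair the arrays only by number (correlations of same-numbered deviations 0.21, 0.11 and 0.14 over features), and with the replicate block 30 members were called in MYD88_L265P over EV. The block also brought Psmg2 past the threshold in IKK_K171E over EV (0.72, limma adjusted p = 0.0375) and ended the call of Ecpas in MYD88_L265P over EV (0.0501).

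The core minus cap difference of medians stayed below 0 in MYD88_L265P over EV, from -0.14 to -0.053 with an array left out. In IKK_K171E over EV it ran from -0.086 to -0.015 with an array left out, and the mean of a gene's features gave 9.2e-04. In MYD88_L265P over IKK_K171E it was -0.045 under quantile normalization and ran from -0.099 to -0.062 with an array left out.

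Some named genes changed direction, and the cause was not tested. The replicate block, intensity trend, low-signal filter, all features and only the groups compared kept the fold changes, so direction could not change there. Leaving out an array outside a comparison also kept its fold changes. Under quantile normalization Nfe2l1 in MYD88_L265P over EV turned to -0.068, and in MYD88_L265P over IKK_K171E Sem1 turned to -0.059, Psmg1 to -0.016 and Psmb8 to -0.084. With a common array median Pomp turned to 0.063 there. With an array left out, MYD88_L265P over EV ran from -0.14 to 0.30 for Nfe2l1 and from -0.035 to 0.47 for Psmb8. IKK_K171E over EV ran from -0.15 to 0.27 for Nploc4, from -0.29 to 0.16 for Nfe2l1 and from -0.044 to 0.46 for Psmb8. MYD88_L265P over IKK_K171E ran from -0.14 to 0.34 for Psmb5, from -0.12 to 0.35 for Psmb6, from -0.075 to 0.060 for Pomp, from -0.054 to 0.22 for Psmg1 and from -0.025 to 0.044 for Psmb8. Of all values of named genes with an array left out, 430 kept direction and side of the threshold, 71 lost a call, 8 gained one and 13 changed direction. Under the other alternatives these counts were 848, 9, 8 and 5. Both sets of counts include values whose direction was fixed, so they do not measure stability of direction.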
